A study of Mus musculus with 31 samples.

Results

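Levels of 10 genes that mark the steps of adult neurogenesis in the hippocampus, or the dividing cells behind it, were followed in 31 mice: Sox2, Nes, Eomes, Neurod1, Tbr1, Dcx, Sox11, Igfbpl1, Mki67 and Top2a. The members were chosen by name, with earlier results of these data known. Where a name stood on several loci of the FPKM table, the locus with the highest mean over the 31 mice was taken. All 10 were found among 27094 loci, and a second locus existed for Dcx alone. FPKM, fragments per kilobase of transcript and per unit of mapped fragments, is a level per length, so that levels of different genes may be set beside each other.

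The db/db-IF mice (n = 10) were db/db mice kept without food for 24 h on every other day during 28 days, and fed freely on the days between. The db/db mice (n = 10) are homozygous for the db allele of the leptin receptor gene Lepr, are obese and diabetic, and ate freely. The db/m mice (n = 11) are heterozygous littermates and served as the controls. All were males, given in the labels as strain C57BLKS/J. The labels give an age of 3 months, and the methods of the study give 4 months at the start of fasting. Total RNA of the hippocampus was sequenced, with 1 library per mouse. Groups follow the labels here. A figure legend of the study counts fewer db/db and more db/db-IF mice in the same sequencing. The source of that difference is unknown, so the group of a library may be in doubt. No fasted db/m mice were sequenced, so the effect of fasting without diabetes on these levels was not measured.

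New granule neurons are made throughout life in the subgranular zone of the dentate gyrus. Radial glia-like stem cells that carry Sox2 and nestin give rise to dividing progenitors that pass through an Eomes stage, and these become neuroblasts and immature neurons with doublecortin, which mature into granule cells. Such cells are a small part of the hippocampus, and several of the genes are also used by other cells: Sox2 by astrocytes, Nes by vascular cells, Tbr1 by mature glutamatergic neurons and Neurod1 by mature granule neurons.

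The mean level of the members differed widely. Tbr1, a T-box transcription factor of glutamatergic neurons, averaged 420 FPKM and stood at rank 468 of the loci. Sox2 averaged 26.4, Neurod1 21.7, Sox11 7.25, Igfbpl1 4.28, Dcx 2.21, Nes 2.11 and Eomes 1.25 FPKM. The proliferation genes Mki67 and Top2a averaged 0.266 and 0.267 FPKM and were below 1 FPKM in all 31 mice. Eomes was below 1 FPKM in 18 mice and Dcx in 1 mouse, db/db-IF mouse 7. The other 6 members were above 1 FPKM in every mouse. The table holds no read counts, so the counting error behind these low values is unknown. The db/db-IF libraries did not overlap the others in how levels depended on transcript length, though 1 db/db mouse lay close. With that slope as a covariate 0 members were called in db/db-IF mice, as described after the members.

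**Figure D1:**
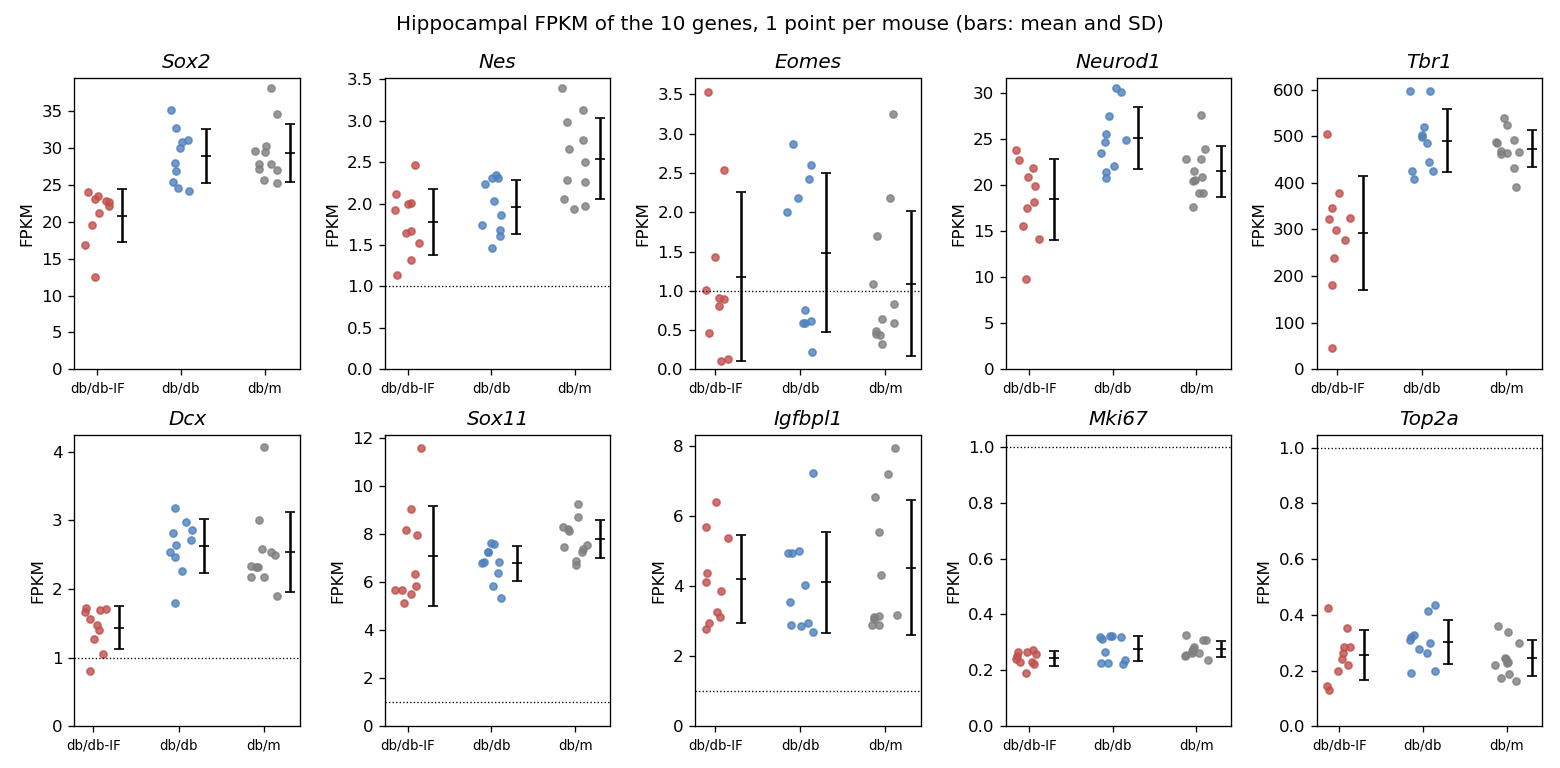
FPKM of the 10 genes in each mouse (1 point per mouse; bars are mean and SD), with db/db-IF left, db/db in the middle and db/m right; the dotted line marks 1 FPKM and the vertical axes start at 0. For Dcx and Sox2 every db/db-IF point lies below every db/db and db/m point, whereas all Mki67 and Top2a points lie below 1 FPKM.

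The sequence before the start site is given for Sox2 and Dcx, the members without overlap between fasted and other mice, and for Mki67 and Top2a, the cell cycle genes. RefSeq promoters of GRCm38.p6 matched 9 of the 10 members, with no entry used for Igfbpl1. The letters searched were CCAAT (or ATTGG on the other strand), the CCAAT box, and TTTGAA (or TTCAAA), the core of the cell cycle homology region found in many genes of mitosis. Bases inside the annotated gene were left off, so the stretches of Dcx, Mki67 and Top2a end before the start site used. The windows are chr3:34649745-34649994 (plus strand), chrX:143933397-143933469 (minus strand), chr7:135716451-135716629 (minus strand) and chr11:99024200-99024439 (minus strand), all read in the direction of the gene, and capitals mark those letters.
Sox2: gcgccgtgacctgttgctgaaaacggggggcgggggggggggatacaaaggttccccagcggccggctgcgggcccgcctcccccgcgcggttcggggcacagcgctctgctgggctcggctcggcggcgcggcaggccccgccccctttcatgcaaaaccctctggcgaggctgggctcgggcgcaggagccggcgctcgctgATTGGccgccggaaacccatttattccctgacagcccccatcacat
Dcx: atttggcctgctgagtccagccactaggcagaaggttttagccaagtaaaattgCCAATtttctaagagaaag
Mki67: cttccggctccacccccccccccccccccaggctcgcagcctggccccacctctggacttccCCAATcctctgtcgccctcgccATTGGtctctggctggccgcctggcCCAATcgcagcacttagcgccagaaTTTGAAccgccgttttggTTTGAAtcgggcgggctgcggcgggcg
Top2a: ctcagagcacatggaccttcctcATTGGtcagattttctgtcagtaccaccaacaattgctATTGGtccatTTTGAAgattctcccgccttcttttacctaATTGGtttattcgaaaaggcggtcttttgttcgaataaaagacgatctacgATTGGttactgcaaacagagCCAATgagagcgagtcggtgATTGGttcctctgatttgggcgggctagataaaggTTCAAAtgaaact

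In the whole window of 250 bases, Top2a held 6 CCAAT and 2 TTTGAA matches, and Mki67 held 3 and 2. Sox2 and Dcx each held 1 CCAAT and 0 TTTGAA matches, for Dcx at the start site shown. Dcx also had a second start site, whose window held 0 of either. At least 1 CCAAT match was found in 6 of the 9 members, against 34.5% of 27025 promoters, and at least 1 TTTGAA match in 4 of the 9, against 16.3%. A match is only a stretch of letters, and no binding was measured here.

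Sox2, the transcription factor of neural stem cells and also of astrocytes, was lower in fasted mice. The gene is at chr3:34649995-34652461, inside the noncoding gene Sox2ot, and its reads cannot be fully told apart from those of that gene. The lowest, median and highest levels were 12.5, 22.3 and 24.03 FPKM in db/db-IF mice, 24.2, 28.9 and 35.2 in db/db mice, and 25.2, 27.8 and 38.1 in db/m mice. The fasted mice lay below all others, with the highest fasted mouse close to the lowest db/db mouse. The mean was 20.8 ± 3.6 FPKM in db/db-IF, 28.9 ± 3.7 in db/db and 29.3 ± 3.9 in db/m mice (SD, n = 10, 10 and 11). On the log2(FPKM + 1) scale, which understates the change of low genes, the difference of db/db-IF against db/db was -0.46 (SE 0.094, adjusted p = 0.00017, limma), and against db/m it was -0.49 (SE 0.092, adjusted p = 6.0e-05). Between db/db and db/m mice it was -0.02 (95% interval -0.21 to 0.16).

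Nes encodes nestin, an intermediate filament of neural stem cells and of some vascular cells (chr3:87971093-87980451). The lowest, median and highest levels were 1.14, 1.79 and 2.47 FPKM in db/db-IF, 1.46, 1.95 and 2.34 in db/db, and 1.94, 2.51 and 3.39 in db/m mice. All 3 groups overlapped, with db/m mice highest. Nes was lower in db/db-IF than in db/m mice (difference -0.35, SE 0.082, adjusted p = 0.00071), and the difference of db/db-IF against db/db was -0.09 (95% interval -0.27 to 0.08). For db/db against db/m mice the value was -0.26 (SE 0.082), with an adjusted p of 0.062, and it passed the threshold when any one of db/db-IF mouse 1, db/db mouse 6, db/m mouse 6 or db/m mouse 9 was left out (adjusted p from 0.0386 to 0.0478).

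Eomes, or Tbr2, is the T-box factor of intermediate progenitors (chr9:118478186-118486132, overlapping Gm33408). It was the most variable member, with the lowest, median and highest levels at 0.104, 0.902 and 3.53 FPKM in db/db-IF, 0.226, 1.38 and 2.86 in db/db, and 0.328, 0.639 and 3.25 in db/m mice. The SD was 91.5%, 68.2% and 85.0% of the mean in the 3 groups. In db/db mice 5 values lay at or below 0.753 and 5 at or above 2.002 FPKM. No comparison of Eomes passed the test, and its difference of db/db-IF against db/db had a 95% interval of -0.75 to 0.33.

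Neurod1, the basic helix-loop-helix factor of late progenitors that stays on in granule neurons (chr2:79452637-79456636), had lowest, median and highest levels of 9.75, 19.0 and 23.8 FPKM in db/db-IF, 20.7, 24.8 and 30.5 in db/db, and 17.6, 20.9 and 27.6 in db/m mice. The groups overlapped. It was lower in db/db-IF than in db/db mice (difference -0.45, SE 0.11, adjusted p = 0.00125). Against db/m mice the value was -0.24 (SE 0.11) with an adjusted p of 0.061, which fell to between 0.0280 and 0.0472 when any one of db/db-IF mice 1, 5, 6 and 10 or db/m mouse 11 was left out. For db/db against db/m mice the value was 0.21 (95% interval -0.01 to 0.44).

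Tbr1 follows Eomes in the order of T-box factors during the making of glutamatergic neurons (chr2:61802863-61814114). The lowest, median and highest levels were 46.8, 310 and 505 FPKM in db/db-IF, 408, 492 and 596 in db/db, and 392, 467 and 539 in db/m mice. All but 1 of the fasted mice lay below every db/db and db/m mouse, while db/db-IF mouse 4 lay among them, and mouse 6 was far below the rest. The mean was 292 ± 122 FPKM in db/db-IF, 490 ± 67 in db/db and 473 ± 40 in db/m mice. The difference of db/db-IF was -0.93 against db/db (SE 0.24, adjusted p = 0.0018) and -0.88 against db/m mice (SE 0.23, adjusted p = 0.0019). Without db/db-IF mice 6 and 7, an alternative chosen after the values were seen, these were -0.56 and -0.52 and were still called.

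Dcx encodes doublecortin, the microtubule protein of migrating neuroblasts and immature neurons that is most often used to count them (chrX:143855842-143933396). The 10 db/db-IF mice had 0.804, 1.06, 1.27, 1.40, 1.48, 1.56, 1.66, 1.69, 1.70 and 1.73 FPKM in rising order. The lowest, median and highest levels were 1.80, 2.68 and 3.18 FPKM in db/db and 1.90, 2.34 and 4.07 in db/m mice. No fasted mouse reached the lowest of the others. The mean was 1.44 ± 0.31 FPKM in db/db-IF, 2.62 ± 0.39 in db/db and 2.54 ± 0.58 in db/m mice, 45.3% lower in db/db-IF than in db/db. The difference was -0.58 against db/db (SE 0.085, adjusted p = 4.0e-06) and -0.53 against db/m mice (SE 0.083, adjusted p = 5.9e-06), and 0.04 for db/db against db/m (95% interval -0.13 to 0.21). In bulk tissue, fewer cells of a type and less RNA per cell cannot be told apart.

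The second locus that carries the name Dcx did not follow the first. It averaged 0.608 ± 0.284 FPKM in db/db-IF, 0.458 ± 0.160 in db/db and 0.323 ± 0.187 in db/m mice. In a fit without a filter it was 0.27 higher in db/db-IF than in db/m mice (SE 0.088, adjusted p = 0.0115), and against db/db the value was 0.13 (SE 0.090, adjusted p = 0.26).

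Sox11 and Igfbpl1 are other genes of the immature neuron. Sox11, a SoxC transcription factor that acts upstream of Dcx (chr12:27334268-27342718), had lowest, median and highest levels of 5.14, 6.08 and 11.6 FPKM in db/db-IF, 5.34, 6.85 and 7.63 in db/db, and 6.72, 7.56 and 9.25 in db/m mice. The groups overlapped, and the spread was widest in fasted mice. The difference of db/db-IF was 0.03 against db/db (95% interval -0.17 to 0.23) and -0.15 against db/m mice (95% interval -0.35 to 0.04), and the value against db/m mice became -0.23 (adjusted p = 0.0176) without db/db-IF mouse 1, the mouse at 11.6 FPKM.

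Igfbpl1, a secreted protein related to the insulin-like growth factor binding proteins and present in neuroblasts (chr4:45809507-45826827, overlapping Stra6l), had 2.79, 3.998 and 6.39 FPKM in db/db-IF, 2.68, 3.79 and 7.22 in db/db, and 2.89, 3.18 and 7.95 in db/m mice as lowest, median and highest levels. Its groups overlapped almost fully. The difference of db/db-IF against db/db was 0.03, with a 95% interval of -0.33 to 0.39. Neither Sox11 nor Igfbpl1 passed the test in any pair of groups with all mice in the fit.

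Mki67 encodes Ki-67, which coats mitotic chromosomes and is the common marker of dividing cells (chr7:135689784-135716450). Its lowest, median and highest levels were 0.189, 0.247 and 0.273 FPKM in db/db-IF, 0.224, 0.289 and 0.323 in db/db, and 0.237, 0.268 and 0.327 in db/m mice. Top2a encodes the DNA topoisomerase that untangles chromosomes before division (chr11:98992947-99024199, overlapping LOC115487886), with 0.130, 0.252 and 0.423 FPKM in db/db-IF, 0.190, 0.305 and 0.436 in db/db, and 0.161, 0.230 and 0.360 in db/m mice. Both genes overlapped between all groups. In the fit without a filter, Mki67 in db/db-IF differed by -0.04 from db/db (adjusted p = 0.072) and by -0.04 from db/m mice (adjusted p = 0.066), and Top2a differed by -0.06 from db/db (adjusted p = 0.24) and by 0.01 from db/m mice (adjusted p = 0.85). Of the 2 genes 0 were thus called in any pair, where without a filter 21.9% of the 27094 loci were higher and 20.5% lower in db/db-IF versus db/db, 25% and 23.2% in db/db-IF versus db/m, and 2.08% and 2.1% in db/db mice versus db/m. At these levels log2(FPKM + 1) leaves little room for a change.

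**Figure D2:**
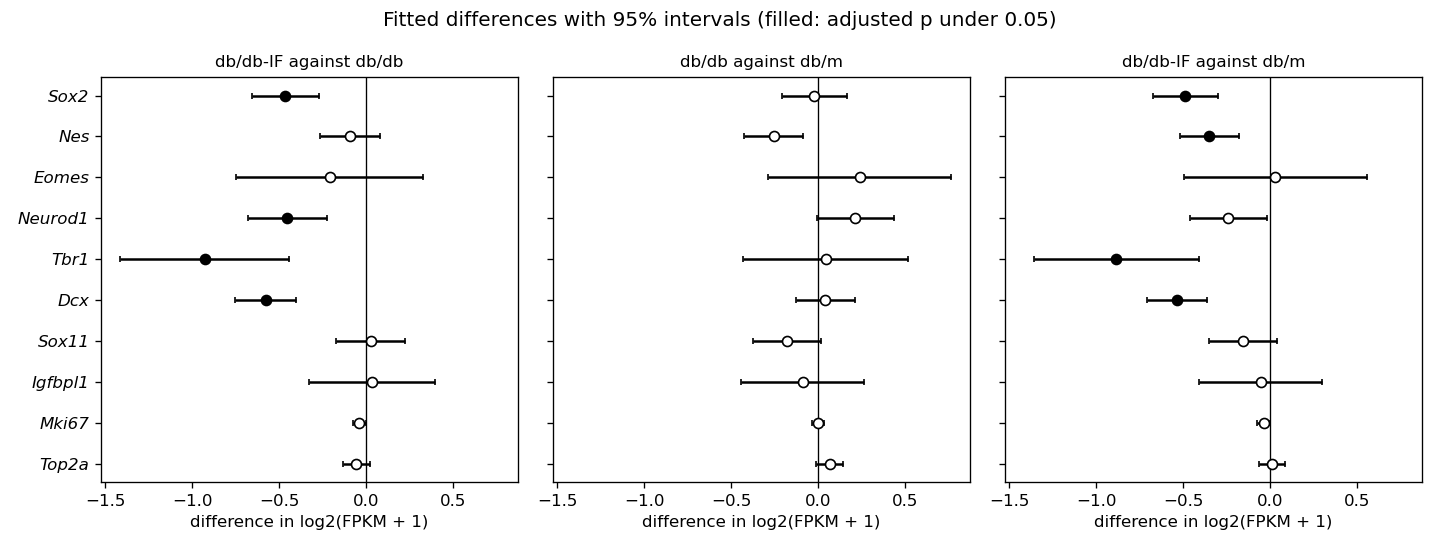
Difference in log2(FPKM + 1) of the 10 genes in the 3 pairs of groups, with 95% intervals (limma); filled points passed an adjusted p of 0.05, and Mki67 and Top2a come from the fit without a filter. Sox2, Neurod1, Tbr1 and Dcx are filled and below 0 for db/db-IF against db/db, no point is filled for db/db versus db/m, and Sox2, Nes, Tbr1 and Dcx are filled for db/db-IF against db/m.

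Of the 8 members above 1 FPKM in at least 10 mice, 4 were lower and 0 higher in db/db-IF than in db/db mice, where 27.4% of the 17139 tested loci were lower and 23.7% higher. In db/db-IF against db/m mice 4 were again lower and 0 higher, beside 29.4% and 26.2% of all loci. In db/db against db/m mice 0 of the 8 were called by limma, beside 2.96% higher and 2.79% lower, and 1 of them, Nes, had an unadjusted p under 0.05. The median difference of the 8 members was -0.33, 0.01 and -0.30 in db/db-IF versus db/db, db/db versus db/m and db/db-IF versus db/m, and that of all tested loci -0.02, 0.01 and -0.04. The groups did not overlap for 2 of the 8, Dcx and Sox2, in which all db/db-IF mice lay below; this held for 3.28% of loci against db/db and for 4.87% against db/m mice. The comparisons of db/db-IF with the other groups share the fasted mice.

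Each group was also set against the other mice combined. In db/db-IF mice Dcx, Sox2, Neurod1, Nes and Tbr1 were lower and 0 higher (5 of 8, beside 30.9% of loci lower and 26.8% higher), with Nes at -0.23 (adjusted p = 0.0179) losing the call without db/db-IF mouse 1 (-0.19, adjusted p = 0.0503). In db/db mice Neurod1 was higher by 0.33 (1 of 8, beside 5.82% of loci higher and 3.69% lower, adjusted p = 0.039), a call lost under 11 of the 31 single mice left out, among them db/db mouse 1 (0.30, adjusted p = 0.0873). Without db/m mouse 1, the mouse with the highest Dcx, Dcx also passed in db/db mice (0.34, adjusted p = 0.0295). In db/m mice Nes was higher by 0.30 (1 of 8, beside 10.9% of loci higher and 12.7% lower, adjusted p = 0.0045). Sox2 joined it without db/db mouse 5 or 7 (0.28 each), and Sox11 without db/db-IF mouse 1 (0.20). Mki67, from the fit without a filter, was lower in db/db-IF mice by 0.04 on the log2 scale (adjusted p = 0.0306, beside 24.3% of loci lower), and lost the call without db/db-IF mouse 7 or 9 (adjusted p = 0.0566 and 0.0786).

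A property of the libraries moved with fasting. For each mouse the slope of the deviation of log2(FPKM + 1) from the mean of the locus was taken on log2 transcript length, over 12204 loci. The slopes of the db/db-IF group lay between -0.240 and -0.045 (median -0.0756), and they ran from -0.040 to 0.072 in db/db mice (median 0.0492) and from 0.0014 to 0.083 in db/m mice (median 0.0524), so that long transcripts read lower, relative to short ones, in every fasted mouse than in any other mouse. The gap between fasted and other mice was narrow, with db/db mouse 10 at -0.0403 beside db/db-IF mouse 8 at -0.0450. Mouse 7 of db/db-IF, the lowest for Dcx, Sox2 and Neurod1, had the lowest slope. The longest transcripts of the members called were 9074 bases for Dcx, 6126 for Nes, 3977 for Tbr1, 2729 for Neurod1 and 2057 for Sox2, against a median of 3355 over the tested loci, so Sox2 and Neurod1 are short. Among mice of the same group the slope correlated across 31 mice with Neurod1 (r = 0.72), Dcx (r = 0.64) and Sox2 (r = 0.57), and hardly with Nes (r = 0.08) or Eomes (r = -0.03), given as a description.

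With the slope as a covariate 0 members were called in db/db-IF against db/db, where 234 loci remained higher (1.37%) and 79 lower (0.461%). The differences became -0.19 for Dcx (SE 0.11, adjusted p = 0.39), -0.09 for Sox2 (SE 0.13, adjusted p = 0.79), -0.36 for Tbr1 (SE 0.37, adjusted p = 0.68) and 0.11 for Neurod1 (SE 0.13, adjusted p = 0.74). Against db/m mice 0 members were called as well, with Nes at -0.30 (SE 0.15, adjusted p = 0.30), beside 1.77% of loci higher and 0.829% lower, and against the other mice 0, beside 0.764% and 0.152%. In db/db versus db/m mice Neurod1 was then higher (1 of 8, 0.26, adjusted p = 0.031, beside 6.05% of loci higher and 4.1% lower). In db/db versus the other mice 0 were called (4.47% higher, 3.42% lower), and in db/m versus the other mice Nes was higher and Neurod1 lower (2 of 8, beside 3.43% and 5.19%). As no fasted mouse shares its slope with another group, fasting and the slope cannot be told apart in these mice.

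**Figure D3:**
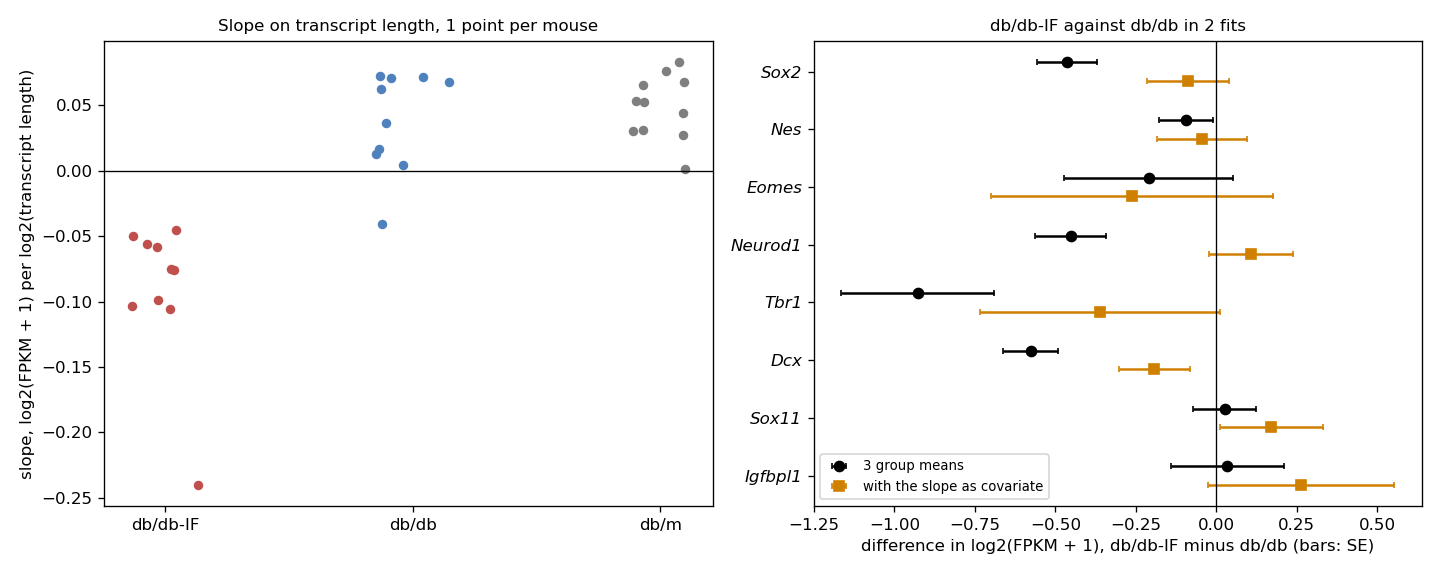
Left, slope of log2(FPKM + 1) on log2 transcript length in each mouse, with db/db-IF, db/db and db/m from left to right; right, difference of db/db-IF against db/db with its SE for the 8 tested members, from the fit with 3 group means (circles) and with the slope as covariate (squares). All db/db-IF mice lie below every other mouse, the nearest being db/db mouse 10 at -0.0403. The values of Dcx, Sox2, Tbr1 and Neurod1 lie nearer 0, or above it for Neurod1, with the covariate.

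The libraries of each group were also split at that group's own largest gap in read quality. Every group therefore holds a lower and a higher set by construction. Dcx and Sox2 were lower in db/db-IF than in db/db mice in both sets (-0.57 and -0.43 in the lower set, -0.60 and -0.53 in the higher set, each called), as was Neurod1 (-0.47 and -0.49). Tbr1 was called in the higher set (-0.69, adjusted p = 0.0107) but not in the lower one (-1.19, adjusted p = 0.066), which holds db/db-IF mouse 6.

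Other genes of the same pathway were read from lists that hold none of the 10 members, and each count stands beside the share of all loci given above. The lists, like the members, were chosen with earlier results of these data known. Of 19 tested stem cell genes 6 were lower and 1 higher in db/db-IF than in db/db mice, with a median of -0.03. The lower ones included Nr2e1, the nuclear receptor that keeps stem cells undifferentiated (4.82 ± 0.63 FPKM in db/db-IF and 7.27 ± 0.94 in db/db mice, -0.51, adjusted p = 6.6e-07), and Egfr, the receptor of epidermal growth factor (-0.67, adjusted p = 5.6e-06). Slc1a3, the glial glutamate transporter, was lower too (-0.33), as was Fabp7, a fatty acid binding protein of radial glia (-0.42). With the slope as covariate 1 of the 19 was called, Fabp7 (-0.58, adjusted p = 0.042), while Nr2e1, Egfr and Slc1a3 were not (adjusted p = 0.092, 0.28 and 0.62). Between db/db and db/m mice 2 were lower, Gfap, the glial filament protein (-0.40, adjusted p = 0.00026), and Fabp7 (-0.33, adjusted p = 0.024).

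The genes of progenitors and immature neurons went both ways in db/db-IF against db/db mice. Of 11 progenitor genes 4 were lower and 3 higher. Insm1, a zinc finger factor of dividing progenitors, was lower (-0.37, adjusted p = 0.0015), and Hes6, which promotes neuronal differentiation, was higher (24.9 ± 1.8 FPKM in db/db-IF and 17.9 ± 2.4 in db/db mice, 0.47, adjusted p = 2.4e-06). Of 16 immature neuron genes 6 were lower, among them Sema3c, a secreted semaphorin (-0.72, adjusted p = 3.3e-07), and Dpysl3 (-0.28, adjusted p = 0.00014), a collapsin response mediator protein. Another 5 were higher, led by Marcksl1 (194 ± 20 FPKM in db/db-IF and 152 ± 11 in db/db mice, 0.35, adjusted p = 1.7e-05), an actin-binding protein. Of 12 granule neuron genes 4 were lower and 0 higher, with a median of -0.03 beside -0.02 for all tested loci. The lower ones included Neurod6 (-0.67, adjusted p = 2.5e-06) and Prox1, the factor that marks the granule cell (-1.07, SE 0.33, adjusted p = 0.0085). Prox1 varied widely between mice, from 0.75 to 6.32 FPKM in db/db-IF, 5.22 to 11.5 in db/db and 0.64 to 9.17 in db/m mice. The slope as covariate ended the call of each gene named in these 3 lists (adjusted p = 0.079 for Marcksl1 to 0.64 for Prox1). Called with it were 0 of the 11 progenitor, 1 of the 16 immature neuron and 0 of the 12 granule neuron genes, the 1 being Plxnb1, a semaphorin receptor named here after its value was seen (0.34, adjusted p = 0.028). In db/db mice Neurod6 was higher than in db/m (0.55, adjusted p = 0.00054).

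Of 34 cell cycle genes only 22 reached the filter, and among these 3 were lower and 3 higher in db/db-IF than in db/db mice, with a median of -0.01. Mcm2, a helicase subunit of licensed origins, was lower (2.50 ± 0.29 FPKM in db/db-IF and 3.03 ± 0.19 in db/db mice, -0.21, adjusted p = 0.0022), and Pcna, the sliding clamp, was lower too (-0.20, adjusted p = 0.0039). Mcm7, another subunit of the same helicase, was higher (0.14, adjusted p = 0.0010), as was Tyms, which makes thymidylate (0.17, adjusted p = 0.016). With the slope as covariate 0 of the 22 were called in db/db-IF against db/db mice (adjusted p = 0.17 for Mcm2, 0.79 for Pcna, 0.37 for Mcm7 and 0.77 for Tyms). None of the 22 was called by limma in db/db against db/m mice.

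The signals that act on neurogenesis and passed the test were all lower in db/db-IF mice. Of 20 tested ligands, receptors and effectors 12 were lower and 0 higher in db/db-IF than in db/db mice, with a median of -0.23, and 10 were lower and 0 higher against db/m mice. They included Ptch1, the hedgehog receptor and target (3.40 ± 0.74 FPKM in db/db-IF and 5.37 ± 0.88 in db/db mice, -0.54, adjusted p = 4.6e-05), Bmpr1a, a receptor of bone morphogenetic proteins (-0.57, adjusted p = 8.0e-05), Fgfr1 (-0.28, adjusted p = 1.6e-05) and Igf1r (-0.28, adjusted p = 0.00015). Between db/db and db/m mice Bdnf (0.24, adjusted p = 0.023) and Fgfr1 (0.16, adjusted p = 0.027) were higher and Smo, the hedgehog transducer, lower (-0.20, adjusted p = 0.030). With the slope as covariate 0 of the 20 were called in either comparison of db/db-IF mice.

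**Figure D4:**
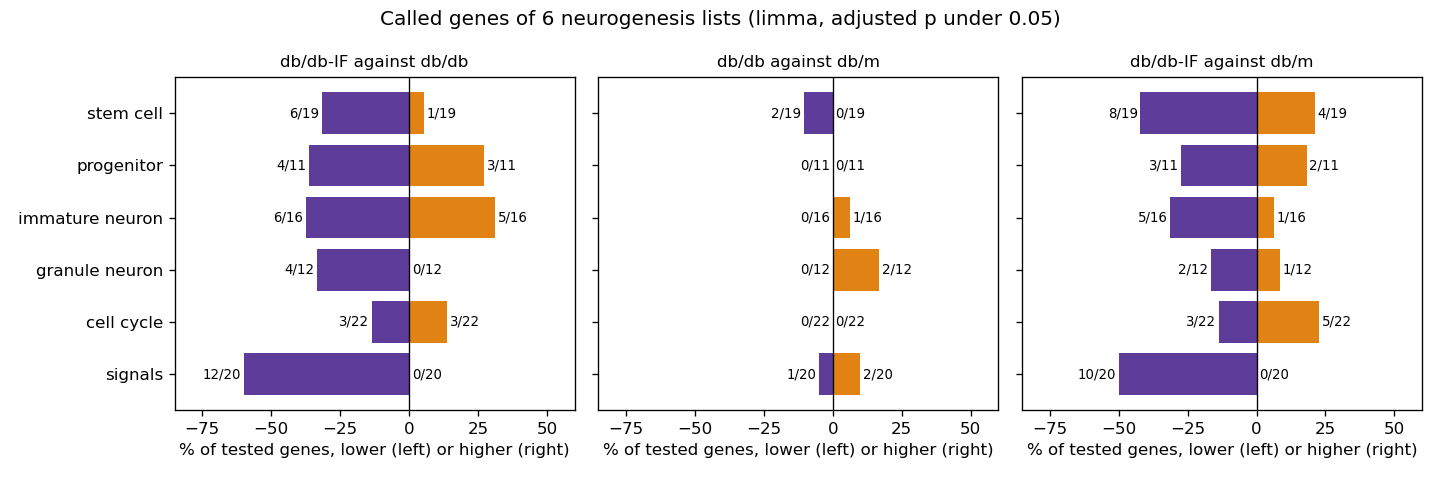
Share of the tested genes of 6 lists that were lower (left of 0) or higher (right of 0) in each pair of groups, with the counts beside the bars (limma, adjusted p under 0.05). The signals have 12 of 20 genes lower and 0 higher in db/db-IF against db/db, whereas the cell cycle genes have 3 lower and 3 higher.

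Markers of other cells, some of which share member genes, gave the following values. The summed FPKM of the 6 oligodendrocyte precursor markers, cells that also carry Sox2, ran from 116 to 158 in db/db-IF, from 162 to 194 in db/db and from 166 to 228 in db/m mice, with all 6 lower in db/db-IF against both groups and Pdgfra, whose locus carries a second gene name, at -0.72 against db/db. The 8 astrocyte markers summed to 1605 to 2733 in db/db-IF, 2352 to 3669 in db/db and 1380 to 3619 in db/m mice, with 2 lower and 1 higher in db/db-IF against db/db. Slc1a2 weighs most in this sum, with means of 1240, 1979 and 1957 FPKM in the same order and a lowest db/m value of 218. The 8 vascular markers summed to 232 to 328, 303 to 383 and 291 to 372 in the same order, with 6 lower in db/db-IF against db/db. The 8 markers of neocortical neurons, which also carry Tbr1, summed to 123 to 295 in db/db-IF, 205 to 352 in db/db and 234 to 350 in db/m mice, with 2 lower against db/db. The 8 markers of hippocampal neurons summed to 300 to 505, 288 to 560 and 287 to 498 in the same order of groups, and those of the choroid plexus, a tissue beside the hippocampus, to 4222 to 31708, 770 to 26228 and 669 to 33017. The choroid plexus sum is nearly all Ttr, which ran from 4208 to 31657, 762 to 26189 and 660 to 32960 FPKM. In db/db-IF against db/db mice 2 of the 7 tested hippocampal markers were higher and 1 lower, and 1 of the 4 tested choroid plexus markers was higher. Of the 4 ependymal markers 3 were higher and 0 lower there. Among 5 tested microglia markers 1 was lower and 0 higher. Among 5 tested markers of ganglionic eminence and subventricular neuroblasts 3 were lower and 0 higher. These counts stand beside 27.4% of all tested loci lower and 23.7% higher in that comparison. With the slope as covariate, 2 of the 6 oligodendrocyte precursor markers were called there, both lower. Of the astrocyte, vascular, neocortical, hippocampal, choroid plexus, ependymal, microglia and neuroblast markers 0 were called with it. No marker was at 0 in all mice, and the part of these cells in the member differences was not tested. Lepr was below 1 FPKM in all mice (0.192, 0.227 and 0.374 FPKM on average in db/db-IF, db/db and db/m), a locus total that does not show the db allele.

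Members were then compared between mice of the same group, after each group mean was taken off log2(FPKM + 1). Of 45 pairs 2 passed a permutation test within groups after adjustment, and 5 had an unadjusted p under 0.05. Dcx and Sox2 varied together (n = 31, r = 0.77, rho = 0.75, permutation p = 2.0e-05, adjusted p = 0.0009). The r was 0.64 without the 2 mice farthest from the median of Dcx and 0.63 with the slope removed. It was 0.90 in the lower read-quality set (15 mice) and 0.69 in the higher set (16 mice), and 0.89, 0.59 and 0.79 in db/db-IF, db/db and db/m mice alone. Of the 17141 loci ranked, 80, with Dcx itself counted, followed Dcx more closely than Sox2 did.

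Eomes and Igfbpl1, neither of which was called between groups, were the other pair (n = 31, r = 0.56, rho = 0.56, permutation p = 0.0013, adjusted p = 0.030). The r was 0.47 without the 2 mice farthest from the median of Eomes and 0.57 with the slope removed. It was 0.61 and 0.56 in the lower and higher read-quality sets, and 0.58, 0.50 and 0.63 in db/db-IF, db/db and db/m mice. Of the ranked loci, 12, with Eomes itself counted, followed Eomes more closely than Igfbpl1. Dcx and Igfbpl1, both genes of neuroblasts, had r = 0.28 (permutation p = 0.14), and the proliferation genes Mki67 and Top2a r = 0.23 (permutation p = 0.22), neither of which passed.

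**Figure D5:**
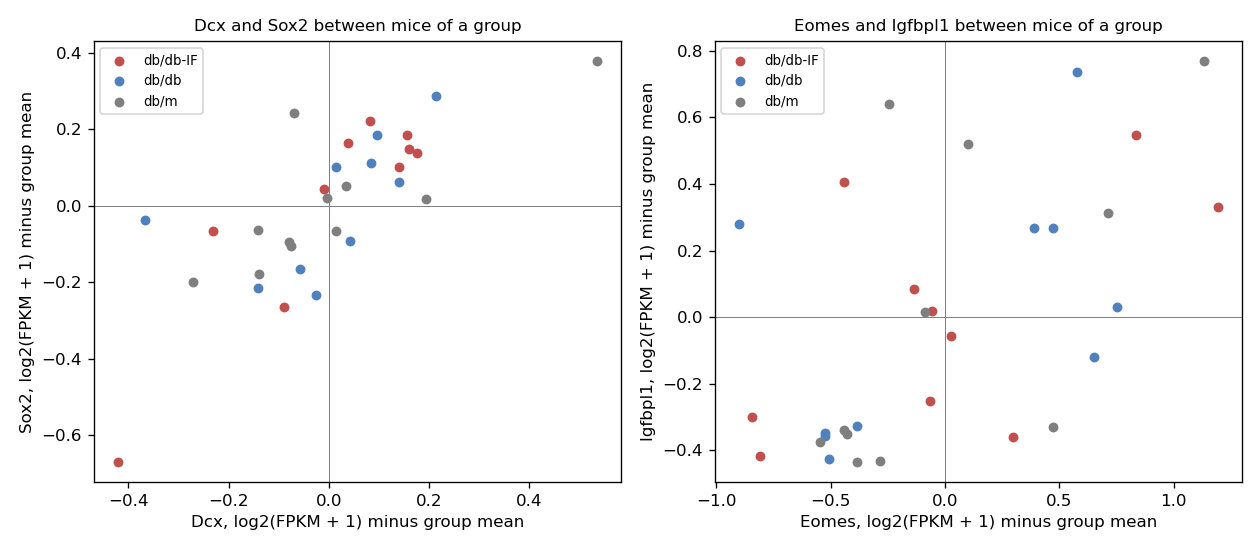
Level of Sox2 against Dcx (left) and of Igfbpl1 against Eomes (right) as log2(FPKM + 1) minus the group mean, with 1 point per mouse coloured by group (db/db-IF, db/db, db/m). The points rise together in both panels (r = 0.77 and 0.56), with 1 db/db-IF mouse low and 1 db/m mouse high on both axes at left.

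The named loci most like Dcx were Pgap1, Nyap2, Rims2, Nbeal1 and the locus of Mir331 and Vezt (r from 0.85 to 0.87). Those most like Sox2 were 4930563E22Rik, Angpt1, Cav2, Nyap2 and Zfp36l1 (r from 0.82 to 0.83), and those most like Mki67 were Rad18, Nkain2, Ddx10, LOC108169177 and Rccd1 (r from 0.62 to 0.66). Nyap2 stood in the lists of both Dcx and Sox2. None of the other members was in these lists. The slope on transcript length was not removed here, and within groups it correlated with Dcx (r = 0.64), Sox2 (r = 0.57) and Mki67 (r = 0.39).

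The members were also set against the summed marker lists, in 90 relations of which 3 passed after adjustment, all with the markers of ganglionic eminence and subventricular neuroblasts (the Dlx and Sp genes). These were Sox2 (n = 31, r = 0.68, rho = 0.64, adjusted permutation p = 0.0036), Dcx (r = 0.67, rho = 0.57, adjusted permutation p = 0.012) and Igfbpl1 (r = 0.62, rho = 0.50, adjusted permutation p = 0.013), with 0.63, 0.49 and 0.48 left without the 2 mice farthest from the median of the markers. Dlx genes also mark inhibitory neurons. The summed level of these markers ran from 18.3 to 30.8 FPKM in db/db-IF, from 25.003 to 34.2 in db/db and from 19.5 to 40.5 in db/m mice. These relations were chosen after the values were seen, and the slope on transcript length was not removed from them.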

How the data were processed

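The authors deposited FPKM, with 1 value per locus and mouse. Per the labels, reads were trimmed with Trimmomatic 0.38, aligned with HISAT2 to GRCm38.p6 and assembled with StringTie 1.3.4d, and the study's methods say that the 31 assemblies were merged. FPKM is divided by transcript length and mapped fragments and is not scaled further. Read counts were not used here, so the number of reads behind a value is unknown. Whether counting used strand is not given in the sources used here.

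Values were taken as log2(FPKM + 1) and tested in R 4.3.3 with limma 3.58.1 (prior spread following mean level, two-sided, Benjamini-Hochberg over 17139 loci above 1 FPKM in at least 10 mice, threshold 0.05), in 1 fit with 3 group means and in fits of each group against the rest. Members under the filter came from a fit of all 27094 loci. The test was checked on simulated data. Transcript lengths, the longest of each gene in GENCODE, covered 71.2% of the tested loci and 92.9% of those alone or first for their gene. Correlations used 100000 permutations within groups (numpy 2.4.6, Python 3.11.15). The read-quality sets were made from the study's per-library quality values.

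Named genes were the members, the 5 named loci most like Dcx, Sox2 and Mki67, up to 4 called genes of each list and comparison with the smallest adjusted p, and Lepr. Members and lists were chosen with earlier results of these data known. Some genes that this rule takes, and some details of the stock, are left out here.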

Additional observations from a re-analysis of the deposited data

Results flagged for a closer look

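Groups of 10 mice were searched for a highest or lowest mouse set apart from the rest by Dixon's criterion, in 20 combinations of a member and a group (db/db-IF and db/db). The 11 db/m mice were not searched. Igfbpl1 was flagged in db/db mice, in which mouse 7 had 7.22 FPKM and the next mouse 4.997 FPKM, a gap of 0.49 of the range of the group. Chance alone sets apart about 1 in 20 groups, and 1 of 20 was found. Values above 7 FPKM were also seen in 2 db/m mice.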

How the results depend on the processing

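Counts of called members are given. With the slope on transcript length as covariate, 0 were called in db/db-IF versus db/db, versus db/m and versus the other mice and db/db against the other mice, 1 in db/db against db/m (Neurod1, 0.26) and 2 in db/m against the other mice. There Neurod1 turned to 0.11 in db/db-IF against db/db, 0.20 in db/db-IF and -0.28 in db/m against the other mice, and Mki67 to 0.0092 in db/db-IF against the other mice. Array weights gave 1 in db/db against db/m and 2 in db/m against the other mice, and ended the call of Nes in db/db-IF against the other mice (-0.18, adjusted p = 0.068 by limma). In the lower read-quality set 3 were called in db/db-IF, 0 in db/db and 0 in db/m against the other mice, and in the higher set 0 in the last 2. For db/db against the other mice the count was 0 without the filter, at an adjusted p of 0.01 and with the replicate block. For the members under the filter it was 1 (Mki67) with quantile normalization and with read quality as covariate, which also called Neurod1 in db/db-IF against db/m mice (-0.23, adjusted p = 0.046 by limma). The call of Mki67 in db/db-IF against the other mice was lost with libraries scaled to an equal upper quartile (-0.025, adjusted p = 0.148 by limma). It was also lost at an adjusted p of 0.01 and in the lower and higher read-quality sets alone (adjusted p = 0.142 and 0.167 by limma). Spearman's rho gave 4 pairs of members in place of 2. The causes of these shifts were not tested, save that the single sets hold fewer mice.

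With each mouse left out in turn, 4 were called each time in db/db-IF against db/db, 4 to 6 against db/m and 4 to 5 against the other mice, 0 to 1 in db/db against db/m, 0 to 2 and 1 to 2 in db/db and db/m against the other mice, and 0 to 1 of the members under the filter.

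The replicate block gave 4, 0 and 4 called members in db/db-IF versus db/db, db/db versus db/m and db/db-IF versus db/m, and changed only the count named above. The numbers share no mouse: same-numbered mice correlated by -0.27 to 0.16 (median -0.020, 29 pairs), and 2 of 31 mice correlated best with their own number. The number of reads behind a single value is unknown without counts, and library depth was not analysed here.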
